A study of Mus musculus with 23 samples.

Results

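The nuclear-encoded subunits of mitochondrial complex I were followed in mouse quadriceps muscle lacking or overexpressing Nampt. The members are the genes whose symbol begins with Nduf, without assembly factors (Ndufaf names) and pseudogenes, and with 10 or more summed counts in the libraries tested. This gave 38 genes of the 38924 listed. All 38 were tested at 7 months, and 37 at 4 and 24 months, where Ndufa4l2 (85 counts over 15 libraries) did not pass the filter on low counts. The members tested passed that filter through their level in all groups, not through a group in which they were high.

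Messenger RNA was sequenced from 23 C57BL/6 quadriceps, each with its own number in the sample titles. The groups were mNKO mice (deficient for Nampt in skeletal muscle) and WT mice at 7 months (4 libraries each), MCK-NamptOE mice (overexpressing Nampt in skeletal muscle) at 4 months (3 libraries) and 24 months (4 libraries), and WT mice at 4 and 24 months (4 libraries each). MCK names the muscle creatine kinase promoter, which is active in mature fibres. The labels name no driver for the Nampt deficiency and give no sex. RNA was purified with miRNeasy at 7 months and with Trizol at 4 and 24 months, per the labels' protocols, so levels are set side by side only within each of these sets. In bulk muscle, fewer cells of a type and less RNA per cell cannot be told apart.

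Complex I (NADH:ubiquinone oxidoreductase) is the entry point of electrons from NADH into the respiratory chain. Its matrix arm oxidises NADH at a flavin and passes the electrons along iron-sulphur clusters to ubiquinone, and its membrane arm pumps protons. The mitochondrial genome encodes core membrane-arm subunits (the mt-Nd genes), and nuclear genes encode the core matrix-arm subunits and a shell of accessory subunits. NAMPT makes nicotinamide mononucleotide, a precursor of NAD, whose reduced form is the substrate of complex I.

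Nampt itself followed the labels. It had 19.8, 19.0, 23.3 and 12.5 CPM (counts per unit of library size, scaled by TMM, the trimmed mean of M values) in mNKO libraries, against 123, 102, 125 and 127 CPM in WT libraries at 7 months. It had 5093, 5705 and 4441 CPM in MCK-NamptOE libraries at 4 months, against 203, 206, 215 and 253 CPM in WT. At 24 months it had 5736, 4107, 5422 and 9533 CPM in MCK-NamptOE, against 189, 208, 219 and 205 CPM in WT. No group overlapped its control. Libraries held 14900674 to 22755930 gene counts at 7 months and 2032544 to 3443762 at 4 and 24 months, where the members are measured less precisely. The members with the fewest counts over all libraries of a set were Ndufa4l2 (2058) and Ndufb6 (8603) at 7 months, and Ndufa4l2 (85) and Ndufa2 (901) at 4 and 24 months.

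Levels of the members spanned a wide range in WT muscle. Per kilobase of the principal transcript, Ndufa4 was the most abundant in WT at 7 months with 648 ± 182 CPM per kb (SD, n = 4), followed by Ndufb9 (524 ± 125), Ndufa1 (463 ± 122) and Ndufs6 (438 ± 106). These neighbours did not differ beyond their spread. Ndufa4 is now assigned to complex IV although it keeps its Nduf name, and its paralogue Ndufa4l2, known as a target of hypoxia signalling, was the least abundant with 10.8 ± 1.35 CPM per kb. Among core matrix-arm subunits, Ndufs3 had 217 ± 46.1 CPM per kb and Ndufv2 197 ± 45.1, while Ndufs8 had 98.4 ± 16.2. At the low end, Ndufb2 (19.0 ± 4.78) and Ndufab1 (37.8 ± 6.17, the mitochondrial acyl carrier protein) have long principal transcripts of 4371 and 3479 bases, so a part of that order depends on which transcript is taken as the length.

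The members moved together between libraries, so counts of members in the comparisons below are not counts of independent observations. In WT replicate 2 at 7 months 37 of 38 lay above their mean over the 8 libraries, and in WT replicate 1 only 3 did. Leaving out Ndufa4l2, the SD of a member's log2 CPM across the 8 libraries had a median of 0.31, and of 0.13 after the median deviation of all members was taken from each library. Over the 15 libraries at 4 and 24 months these medians were 0.31 and 0.16. These SDs were taken over all groups of a set, so differences between groups are part of them. Some members followed the others less closely at 7 months. The SD was 0.22 before and 0.27 after that step for Ndufv1 and 0.15 and 0.19 for Ndufa9, and it hardly moved for Ndufs1 (0.25 at both), Ndufb3 (0.25 and 0.24) and Ndufa13 (0.27 and 0.24).

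**Figure D1:**
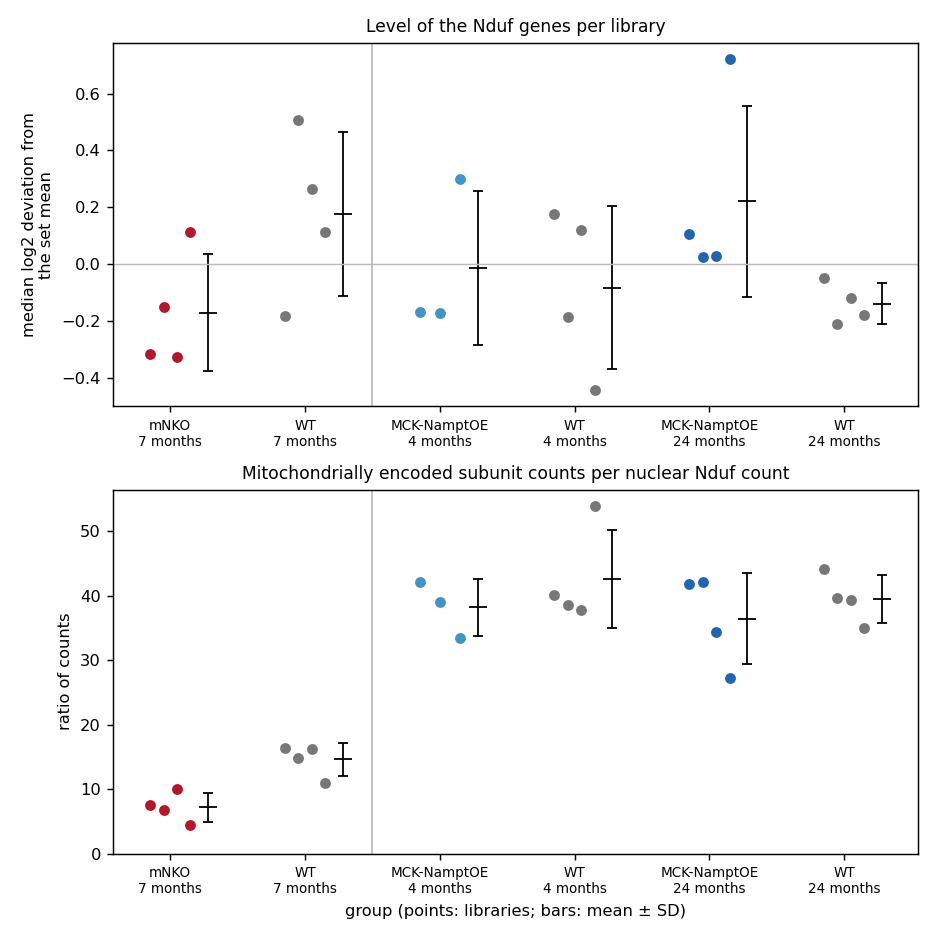
Upper plot: the median over the Nduf genes of the log2 deviation from each gene's mean over its set of libraries (7 months, or 4 and 24 months), 1 point per library, with mean ± SD. Lower plot: summed counts of the mitochondrially encoded subunits divided by those of the nuclear members. MCK-NamptOE replicate 4 at 24 months stands at 0.72, above every other library of its set, and the ratio is lower in all 4 mNKO libraries (4.48 to 9.99) than in the 4 WT libraries (10.9 to 16.4).

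The comparison of mNKO with WT muscle at 7 months asks how the subunit mRNAs stand when muscle is deficient for Nampt. At an adjusted p below 0.05, 14 of 38 members were lower in mNKO and 1 was higher. That is 36.8% lower and 2.63% higher, against 24.5% lower and 28.6% higher of all 13140 genes tested. The median log2 fold change of the members was -0.38, and 34 of 38 were negative, against a median of 0.01 over all genes, of which 49.3% were negative. Below WT without overlap lay 6 of 38 (15.8%), against 23.1% of all genes, and 0 lay above WT without overlap, against 27.0%. The authors' deposited table for this comparison has 15 members lower and 1 higher, against 21.8% lower and 26.0% higher of its 16089 genes. DESeq2 had 16 lower and 1 higher, against 26.2% lower and 28.5% higher.

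These directions depend on the scaling. TMM factors ran from 0.752 to 1.286 at 7 months. With total counts alone the median over all genes moved to 0.54 and that over the members to 0.15, and then 7 members were higher and 0 lower by edgeR (10 members had an unadjusted p below 0.05), against 51.6% higher and 7.05% lower of all genes. The members higher in that fit were Ndufa9, Ndufab1, Ndufb3, Ndufb7, Ndufb10, Ndufa13 and Ndufa4l2. Relative to the median of all genes the members lay at -0.39 with TMM and -0.38 with total counts. A scaling factor shifts all genes of a library alike, so these 2 values had to be nearly equal and are no check on the scaling. In step with the fit on total counts, the members took 0.733 ± 0.098% of gene counts in mNKO libraries and 0.651 ± 0.081% in WT libraries (SD, n = 4 each), ranges that overlapped. Mitochondrial-genome transcripts took 10.3 ± 2.53% of counts in mNKO and 17.2 ± 2.57% in WT. Without them in the denominator the share of the members was 0.816 ± 0.096% in mNKO and 0.787 ± 0.107% in WT. The folds below use TMM.

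**Figure D2:**
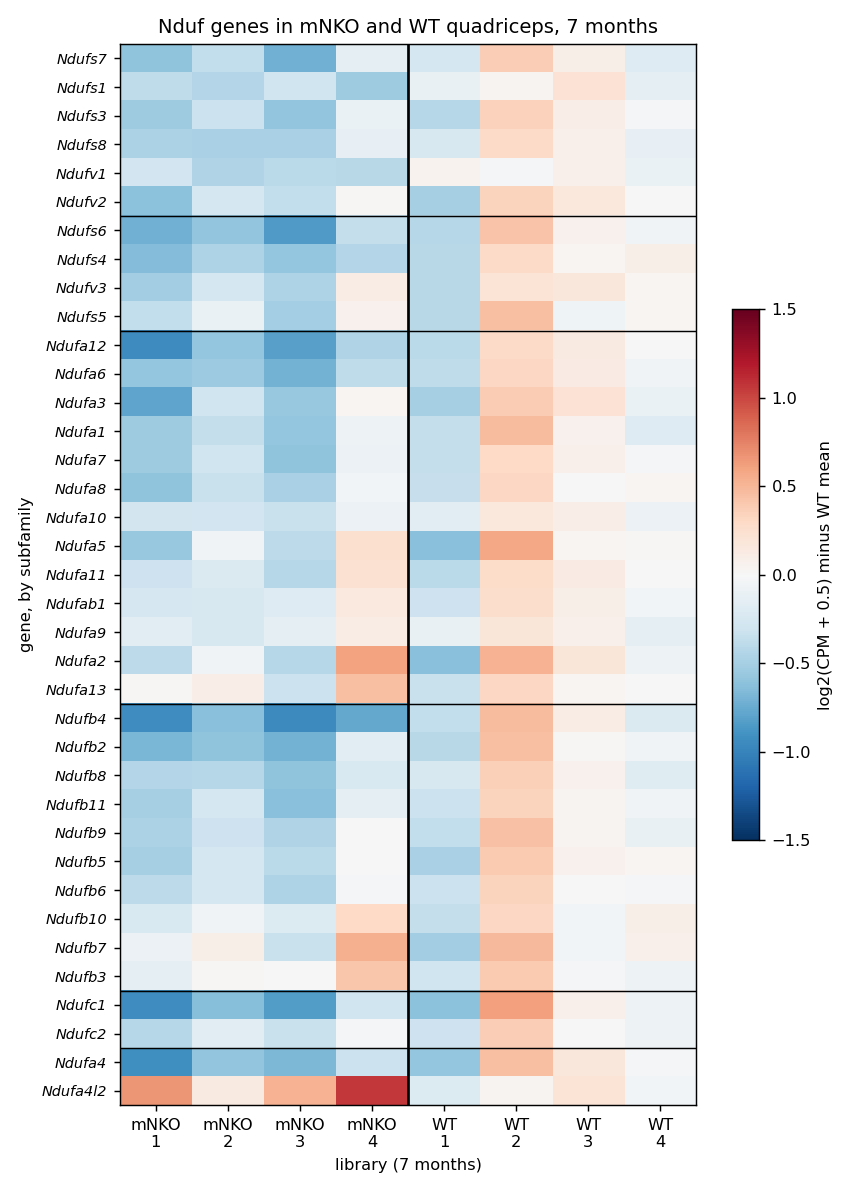
Each row is an Nduf gene, ordered by subfamily (core matrix arm, accessory Ndufs and Ndufv, Ndufa, Ndufb, Ndufc, the Ndufa4 pair), and each column a library at 7 months. Colour gives log2(CPM + 0.5) minus the WT mean of that gene. Most rows are blue in mNKO replicates 1 to 3 and paler in replicate 4, WT replicate 2 is red in nearly all rows, and the Ndufa4l2 row is red in mNKO.

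Of the 6 core matrix-arm subunits described here, 4 fell and the other 2 were negative without passing the test, with log2 fold changes between -0.47 and -0.32. Ndufv1, which carries the flavin that takes electrons from NADH, had 136, 121, 125 and 124 CPM in mNKO, against 172, 162, 174 and 155 CPM in WT. Its groups did not overlap (log2 fold change -0.39, SE 0.11, adjusted p = 0.01). Ndufs1, the large iron-sulphur subunit beside it, had 223, 213, 235 and 199.5 CPM in mNKO, against 268, 298, 336 and 264 CPM in WT. It too fell without overlap (-0.42, SE 0.13, adjusted p = 0.0162).

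Nearer to ubiquinone, Ndufs7 and Ndufs8 fell as well. Ndufs7, the subunit with the last iron-sulphur cluster before ubiquinone, had 111, 131, 102 and 153 CPM in mNKO, against 140.5, 219, 179 and 148 CPM in WT (-0.47, SE 0.18, adjusted p = 0.0431). Ndufs8, a further iron-sulphur subunit, had 70.2, 69.8, 69.7 and 89.7 CPM in mNKO, against 83.1, 120, 103 and 89.5 CPM in WT (-0.40, SE 0.15, adjusted p = 0.0365). For both genes mNKO replicate 4 reached into the WT range.

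Ndufs3 and Ndufv2 did not pass. Ndufs3 had 153, 177, 147 and 208 CPM in mNKO, against 166, 282, 239 and 219 CPM in WT (-0.40, SE 0.18, adjusted p = 0.0758). Ndufv2, an iron-sulphur partner of Ndufv1, had 213, 272, 253 and 331 CPM in mNKO, against 231, 412, 364 and 329 CPM in WT (-0.32, SE 0.19, adjusted p = 0.183). In both, WT replicate 1 lay inside the mNKO range, and for Ndufv2 WT replicate 4 (329 CPM) did too. Of the reference transcript of Ndufs3, 39.7% of 50-base stretches occur in transcripts of other genes, so its count is uncertain.

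Among the 4 accessory Ndufs and Ndufv subunits, Ndufs4 and Ndufs6 fell, and Ndufs5 (-0.25) and Ndufv3 (-0.28) did not pass. Ndufs4, whose loss in mice gives a Leigh-like encephalopathy, had 74.1, 84.4, 77.8 and 86.2 CPM in mNKO, against 87.4, 143, 119 and 125 CPM in WT, with no overlap. The fold change was -0.56 on the log2 scale (SE 0.15, adjusted p = 0.00867). Ndufs6, a zinc-binding accessory subunit of the matrix arm, had 147, 162, 135 and 190 CPM in mNKO, against 181, 327, 254 and 234 CPM in WT. One mNKO library overlapped the WT range (-0.65, SE 0.18, adjusted p = 0.011).

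Of the 13 Ndufa subunits other than the Ndufa4 pair, 2 fell and 12 were negative. Ndufa12, an accessory subunit of the matrix arm, had 246, 315, 268 and 344 CPM in mNKO, against 355, 575, 517 and 469 CPM in WT, and the groups did not overlap (-0.71, SE 0.17, adjusted p = 0.00525). Ndufa6, which holds the acyl carrier protein in the complex, had 154, 157, 141 and 176 CPM in mNKO, against 175.7, 286, 250 and 222 CPM in WT. Its highest mNKO library (175.8 CPM) lay level with its lowest WT library (-0.57, SE 0.16, adjusted p = 0.00994). The other 11 did not pass, with log2 fold changes from -0.42 (Ndufa3) to 0.07 (Ndufa13).

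Of the 10 Ndufb subunits, which belong to the membrane arm, 3 fell and 8 were negative. Ndufb4 had the largest fall of all members. It had 143, 177, 140.5 and 160 CPM in mNKO, against 211, 380.1, 296 and 236 CPM in WT. The groups did not overlap, and mNKO stood at 55.3% of the WT level (-0.86, SE 0.18, adjusted p = 0.00243). Of its reference transcript 37.0% is shared with other genes, among them the processed pseudogene Ndufb4c, which itself had only 7 counts at 7 months. Ndufb2 fell by 0.56 on the log2 scale (SE 0.19, adjusted p = 0.0275) and Ndufb8 by 0.44 (SE 0.16, adjusted p = 0.0333). The other 7 lay between -0.39 (Ndufb11) and 0.07 (Ndufb3). Of the 2 Ndufc subunits, Ndufc1 fell by 0.73 (SE 0.24, adjusted p = 0.0265), and Ndufc2 (-0.25) did not pass.

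The Ndufa4 pair moved in opposite directions. Ndufa4 had 202, 253, 240.2 and 306 CPM in mNKO, against 256, 522, 429 and 374 CPM in WT (-0.66, SE 0.21, adjusted p = 0.0206). Ndufa4l2 had 16.1, 11.0, 14.6 and 21.5 CPM in mNKO, against 8.63, 10.3, 11.6 and 9.73 CPM in WT (0.65, SE 0.19, adjusted p = 0.0149). For Ndufa4l2, 1 mNKO library (11.0 CPM) lay inside the WT range. It was the only member that rose with TMM scaling.

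**Figure D3:**
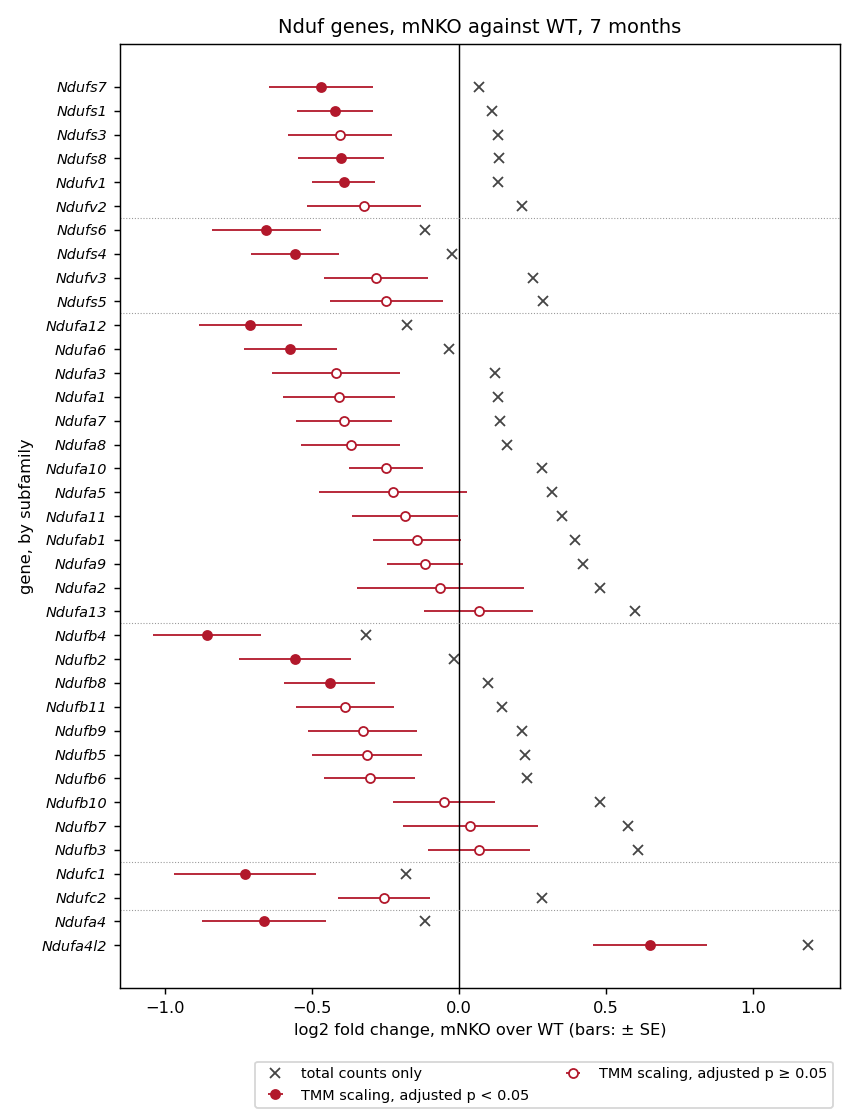
Log2 fold change of mNKO over WT at 7 months for 37 Nduf genes, by subfamily (circles with SE: TMM scaling, filled where adjusted p is below 0.05; crosses: total counts without a scaling factor). Most circles lie left of 0 and most crosses right of it, while the order of the genes within a subfamily is nearly the same by both; Ndufa4l2 lies at the right by both.

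A member's distance from the family's median hardly depends on the factor that scales a library. Ndufb4 lay 0.48 below the family median, Ndufc1 0.35 below and Ndufa12 0.33 below. At the other end Ndufb3 lay 0.45 above it, Ndufa13 0.44, Ndufb7 0.42 and Ndufb10 0.33, and Ndufa4l2 1.03 above. So Ndufb subunits stand at both ends of the spread. Length and base composition had weak relations to the fold changes. Across the 37 members without Ndufa4l2 the log2 fold change had a Pearson r of 0.21 with GC content and of -0.06 with log2 transcript length (a description across genes, which are not independent replicates). The lowest, middle and highest tiers by GC held 5, 4 and 5 of the members that fell.

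Call stability differed between members. Calls of 7 members (Ndufb4, Ndufa12, Ndufs4, Ndufa6, Ndufv1, Ndufs6 and Ndufa4l2) stood in all 8 fits that left out 1 library. Ndufs1 stood in 7, Ndufa4 in 5, and Ndufc1, Ndufb2, Ndufb8, Ndufs8 and Ndufs7 in 3. The count of the 38 members that fell was 7 without WT replicate 3 (2667 of 13412 genes fell) or mNKO replicate 1 (2881 of 13205). It was 8 without WT replicate 2 (2997 of 13410), and 9 without mNKO replicate 2 (3047 of 13346) or 3 (3067 of 13259). In these fits the share of members that fell was near that of all genes. The count was 14 without WT replicate 4 (3055 of 13448 genes), 21 without mNKO replicate 4 (2949 of 13274) and 23 without WT replicate 1 (2962 of 13379).

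To set sequence beside these results, the RefSeq promoter windows (GRCm38.p6, 250 bases before to 50 after the annotated start) of members were searched on both strands for 4 motifs known from genes of the respiratory chain. A window was held for 33 members. The NRF1 motif (GCGCA and GCGC with any 1 base between them) occurred in 7 of 33 windows (21.2%), against 4.78% of 27025 promoter windows, and in 9 of 31 windows (29.0%) of complexes II to V. The ERR motif TGACCTT occurred in 3 (9.09%, against 4.66% of all and 16.1% in complexes II to V) and the ETS core CCGGAAG in 4 (12.1%, against 9.12% and 35.5%). The YY1 motif AAGATGGCG occurred in 5 (15.2%, against 1.49% and 3.23%), in each of them between 22 and 35 bases after the start. These 5 were Ndufa9, Ndufc1, Ndufs4, Ndufs6 and Ndufs7, of which 4 were among the members that fell in mNKO, against 8 of the 28 members without it. Of these calls, those of Ndufc1 and Ndufs7 stood in only 3 of the 8 fits that left out 1 library. With total counts no member was called lower. For NRF1 the counts were 3 of 7 with the motif and 9 of 26 without, for ERR 2 of 3 with and 10 of 30 without, and for ETS 1 of 4 with and 11 of 29 without. The windows were not matched for base composition, and a match is not evidence of binding.

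The 250 bases before the RefSeq start are shown for Ndufb4 (chr16:37654369-37654618, minus strand), the largest fall, and for Ndufs6 (chr13:73328483-73328732, minus strand). They are also shown for Ndufa12 (chr10:94198785-94199034, plus strand), which fell without any of these motifs in its RefSeq window. By the GENCODE M21 annotation that window lies inside Ndufa12, which starts at base 94198720. The windows of Ndufb4 and Ndufs6 partly overlap their genes, whose bounds reach 37654453 and 73328542. Bases further upstream of the GENCODE starts were not searched. Capitals mark the motif matches. For Ndufb4 these are NRF1 at 191, 79 and 22 bases before the start, and the ERR motif (on the other strand) at 55. For Ndufs6 the match is NRF1 (on the other strand) at 16 bases before the start.
Ndufb4: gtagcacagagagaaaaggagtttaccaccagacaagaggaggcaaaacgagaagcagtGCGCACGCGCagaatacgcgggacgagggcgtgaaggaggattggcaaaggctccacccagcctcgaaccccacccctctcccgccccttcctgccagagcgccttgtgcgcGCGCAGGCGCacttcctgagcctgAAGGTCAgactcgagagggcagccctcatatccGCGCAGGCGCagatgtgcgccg
Ndufs6: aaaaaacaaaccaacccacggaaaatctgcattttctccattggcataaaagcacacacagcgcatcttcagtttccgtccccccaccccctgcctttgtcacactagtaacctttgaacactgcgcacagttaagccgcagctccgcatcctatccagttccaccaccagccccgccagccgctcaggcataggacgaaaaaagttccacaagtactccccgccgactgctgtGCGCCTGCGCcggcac
Ndufa12: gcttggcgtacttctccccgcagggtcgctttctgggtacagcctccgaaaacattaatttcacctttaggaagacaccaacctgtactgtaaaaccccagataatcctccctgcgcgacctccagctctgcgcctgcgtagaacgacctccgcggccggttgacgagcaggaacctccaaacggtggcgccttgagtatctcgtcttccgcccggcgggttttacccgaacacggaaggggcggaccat

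Other genes of complex I were lower by more in the same muscles. The mitochondrially encoded subunits fell in all 5 that were tested of 7, with a median log2 fold change of -1.47 and no overlap between groups. Of all genes 24.5% fell, and 23.1% lay below WT without overlap. mt-Nd1, a core subunit at the ubiquinone site, averaged 17196 ± 3273 CPM in mNKO and 47567 ± 12775 CPM in WT (-1.47, SE 0.23, adjusted p = 0.000332). Per count of the nuclear members the libraries held 7.55, 6.83, 9.99 and 4.48 counts of mitochondrially encoded subunits in mNKO, against 16.4, 14.9, 16.3 and 10.9 in WT. This ratio, which no scaling factor touches, did not overlap between the groups.

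Assembly factors of complex I, which build the modules and are not part of the finished enzyme, had a median of -0.54 with TMM. Of 20 tested, 13 fell, all 13 of them without overlap, against 24.5% of all genes lower and 23.1% below without overlap. Ndufaf5, which modifies Ndufs7 during assembly, averaged 17.8 ± 1.70 CPM in mNKO and 42.1 ± 9.75 CPM in WT (-1.24, SE 0.17, adjusted p = 0.000132). Ecsit (-0.84, SE 0.12) and Tmem126a (-0.97, SE 0.15), both of the membrane-arm assembly machinery, and Ndufaf6 (-1.16, SE 0.17) also fell. The nuclear subunits of complexes II to V had a median of -0.23, with 9 of 41 lower (22.0%, near the 24.5% of all genes) and 2 higher. Cox6a2, the heart and muscle form of a complex IV subunit, fell by 0.84 (SE 0.18), whereas Cox6a1, its form in other tissues, rose by 1.35 (SE 0.22). The ratio of counts in complex I members to counts in complexes II to V was 0.445 ± 0.024 in mNKO and 0.467 ± 0.026 in WT (SD, n = 4 each), which overlapped.

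Of 15 regulators of mitochondrial gene expression 4 fell (26.7%, near the 24.5% of all genes) and 0 rose, with a median of -0.35. They were Tfb2m (-1.04, SE 0.14) and Tfam (-0.61, SE 0.12), which act in transcription of the mitochondrial genome, Esrra (-0.40, SE 0.10), the nuclear receptor ERR alpha, and Yy1 (-0.37, SE 0.13). Of 18 genes of mitochondrial NADH supply and shuttles, 10 fell and 1 rose (median -0.41), against 24.5% lower and 28.6% higher of all genes. Among them were Gpd2 (-1.46, SE 0.21), the mitochondrial enzyme of the glycerol phosphate shuttle, Slc25a12 (-0.80, SE 0.15), a carrier of the malate-aspartate shuttle, and Slc25a51 (-0.58, SE 0.12), the mitochondrial NAD carrier. The adjusted p-values of these 7 genes by edgeR were at most 0.034.

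Markers of other cell types and fibre types differed between these groups as well. Macrophage markers (10 of 10) and fibroblast markers (10 of 10) rose, with summed levels of 702 to 1210 CPM in mNKO and 59.0 to 225 CPM in WT for macrophages, and of 3438 to 5642 CPM in mNKO and 924 to 1240 CPM in WT for the fibroblast list. Regenerating-fibre genes rose in 8 of 10 (565 to 1004 CPM in mNKO, 58.5 to 72.8 CPM in WT) and slow-fibre genes in 7 of 9 (415 to 485 CPM in mNKO, 57.4 to 74.7 CPM in WT). Of 11 fast-fibre genes, 7 fell and Myh1, which the general list of fibre genes also holds, rose. The summed level of 10 general muscle-fibre genes was 73657 to 105807 CPM in mNKO and 156776 to 180200 CPM in WT, and 5 of the 10 fell and 1 rose. Of all genes tested 28.6% rose and 24.5% fell. No gene of these 6 lists was at 0 in either group. Their part in the lower TMM-scaled levels of complex I mRNAs was not tested. Endothelial and adipocyte markers had 0 of 8 called each (2 and 0 at an unadjusted p below 0.05), Schwann-cell markers 1 of 8 higher, T- and B-cell markers 2 of 2 tested higher, erythroid genes 0 of 4, and pericyte and smooth-muscle genes 3 higher and 1 lower of 7.

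The comparison of MCK-NamptOE with WT at 4 months asks whether the reverse change, a surplus of Nampt, moves the subunits in young muscle. It called 0 of 37 members by edgeR, 0 by DESeq2 and 0 in the authors' deposited table, and 0 had an unadjusted p below 0.05, against 4.82% of the 9144 genes. Nampt was the only gene of all those tested to be called (0.0109%). The members had a median log2 fold change of 0.02 and ran from -0.30 to 0.34, with 21 of 37 positive (48.5% of all genes were). The smallest p-values belonged to Ndufb8 (0.34, SE 0.25), Ndufab1 (0.22, SE 0.16) and Ndufa2 (-0.30, SE 0.23), each with an adjusted p of 0.959. Ndufb8 had 94.4, 79.2 and 132 CPM in MCK-NamptOE, against 98.2, 69.6, 108 and 43.1 CPM in WT, and the groups overlapped. With 3 against 4 libraries and a standard error of this size, changes of such a size were not detectable.

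At 24 months the members stood higher in MCK-NamptOE as a body, yet none passed the test. The log2 fold changes of all 37 were positive, from 0.20 to 0.67 with a median of 0.41, against 50.3% of all genes positive and a median of 0.00. The call count was 0 of 37 by edgeR (smallest adjusted p = 0.543), 0 by DESeq2 and 0 in the authors' deposited table, and Nampt was again the only gene called by edgeR (0.0109%). At an unadjusted p below 0.05 there were 21 of 37 (56.8%), against 7.34% of all genes (4.18% in the higher direction), and 10 of 37 (27.0%) lay above WT without overlap, against 2.36% of all genes. Because the members moved together between libraries, these counts do not come from independent observations.

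Ndufa5 and Ndufc1 were among the members with the smallest p-values. Ndufa5, an accessory subunit of the matrix arm, had 104, 106, 96.3 and 187.5 CPM in MCK-NamptOE, against 76.0, 76.0, 79.9 and 77.6 CPM in WT. Its groups did not overlap (0.67, SE 0.20, adjusted p = 0.543). Ndufc1 had 29.0, 19.6, 21.2 and 41.4 CPM in MCK-NamptOE, against 19.1, 15.6, 20.7 and 17.8 CPM in WT, with overlap (0.60, SE 0.20, adjusted p = 0.593).

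**Figure D4:**
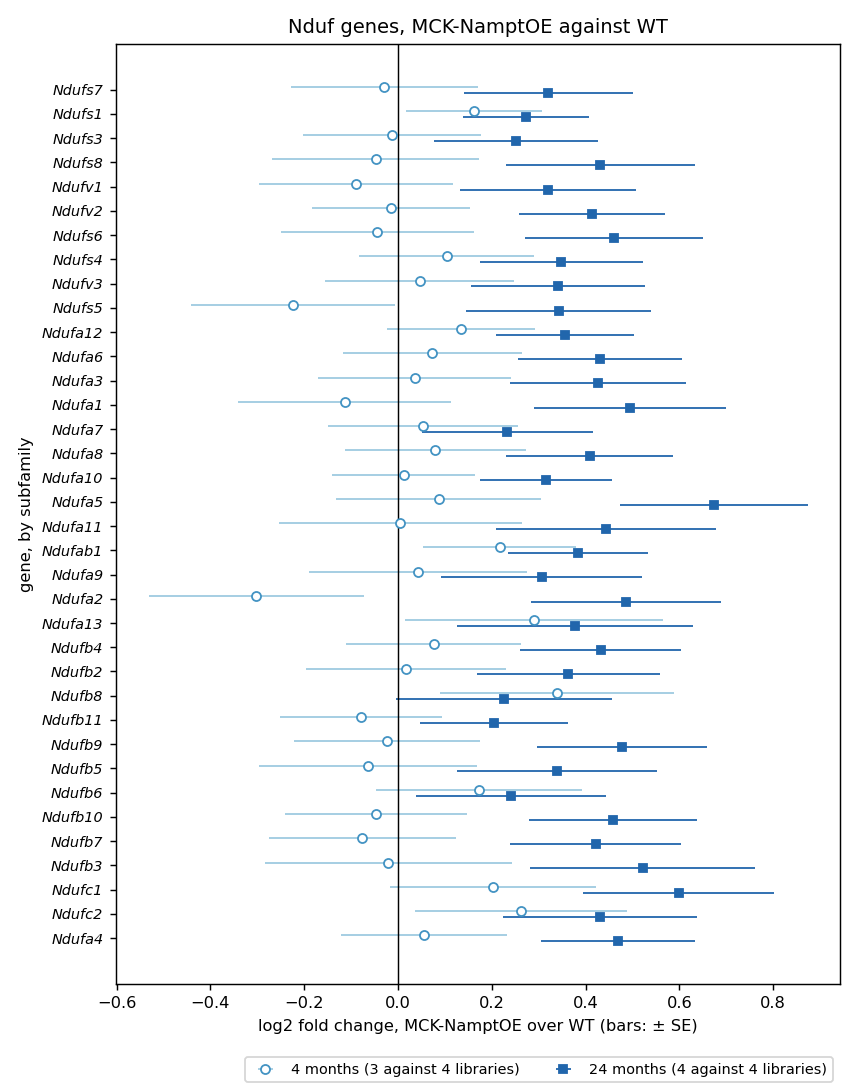
Log2 fold change of MCK-NamptOE over WT with its SE for 36 Nduf genes at 4 months (open circles) and 24 months (filled squares). At 4 months the values scatter around 0 (median of all members tested 0.02), and at 24 months all lie right of 0 (median of all members tested 0.41), though none passed the adjusted threshold.

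MCK-NamptOE replicate 4 carried much of this shift. All 37 members lay above their mean over the 15 libraries in it, with a median deviation of 0.72, while replicates 1 to 3 stood at 0.11, 0.02 and 0.03 and the WT libraries at -0.05, -0.21, -0.12 and -0.18. It was also the library with the most Nampt (9533 CPM) and the highest summed level of slow-fibre genes. Without it the median of the members was 0.19, 36 of 37 were positive (Ndufa7 was at -0.00), and 2 had an unadjusted p below 0.05. Against 21 members at an unadjusted p below 0.05 with all libraries, there were 10 without WT replicate 2, 13 without WT replicate 4 and 8 with total counts, whose median was 0.31. Of all genes 7.34% had an unadjusted p below 0.05 in the main fit, and this share was not taken for the other fits. The 2 of 37 members without MCK-NamptOE replicate 4 were not above that main-fit share.

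The slow-fibre genes differed alongside. Their summed level was 556, 280, 652 and 968 CPM in MCK-NamptOE at 24 months, against 336, 65.2, 248 and 42.8 CPM in WT at 24 months. At 4 months it was 56.6, 39.7 and 77.7 CPM in MCK-NamptOE, against 125, 48.0, 46.7 and 130 CPM in WT. None of the 8 slow-fibre genes tested passed the test at 24 months (7 had an unadjusted p below 0.05, against 7.34% of all genes). Their part in the level of the members was not tested. Macrophage, fibroblast and regenerating-fibre lists had no gene called by edgeR, with 0 of 5, 1 of 9 and 0 of 5 genes at an unadjusted p below 0.05.

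**Figure D5:**
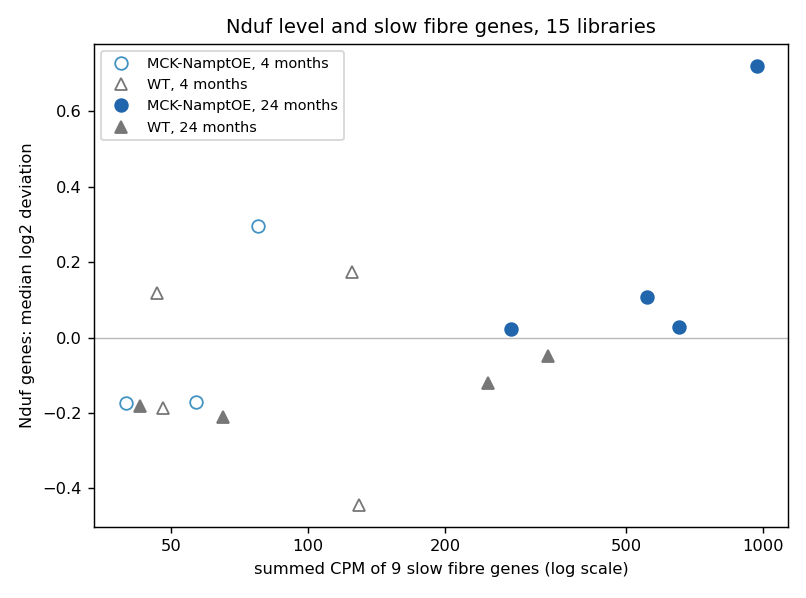
Each point is 1 of the 15 libraries at 4 and 24 months; the horizontal axis (log scale) is the summed CPM of 9 slow-fibre genes and the vertical axis the median log2 deviation of the Nduf genes from their mean over these libraries. MCK-NamptOE replicate 4 at 24 months is at the upper right (968 CPM, 0.72); MCK-NamptOE replicate 3 at 4 months is high (0.30) with few slow-fibre transcripts (77.7 CPM).

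The other complexes were also higher on average in old MCK-NamptOE muscle. All 41 nuclear subunits of complexes II to V were positive (median 0.43), against 50.3% of all genes, with 0 called. Of the 41, 25 had an unadjusted p below 0.05, against 7.34% of all genes. Above WT without overlap lay 20, against 2.36% of all genes. Here too MCK-NamptOE replicate 4 stood apart, with a median deviation of 0.78, against 0.13, 0.06 and 0.07 in replicates 1 to 3. Without it, in a comparison added after these values were seen, the median was 0.24, all 41 were still positive and 4 had an unadjusted p below 0.05. The share over all genes was not taken for that comparison. The ratio of counts in complex I members to counts in complexes II to V was 0.400 ± 0.015 in MCK-NamptOE and 0.393 ± 0.007 in WT (SD, n = 4 each). Complex I assembly factors had a median of 0.22 (17 of 19 positive, 2 at an unadjusted p below 0.05), regulators of mitochondrial gene expression 0.15 (12 of 15) and genes of NADH supply 0.26 (15 of 17). Without that library these medians were 0.06, 0.11 and 0.20. The 5 mitochondrially encoded subunits tested had a median of 0.21. Per count of the nuclear members there were 36.4 ± 7.05 mitochondrially encoded counts in MCK-NamptOE and 39.5 ± 3.75 in WT.

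Ageing was compared within each genotype. In WT, 24 against 4 months called 0 of 37 members by edgeR and 0 by DESeq2, with 0 at an unadjusted p below 0.05, against 0.153% of all genes called and 8.54% at an unadjusted p below 0.05. The median was -0.14, with 31 of 37 negative (49.5% of all genes were). It moved to -0.03 with total counts (0.11 over all genes) and to -0.00 without WT replicate 1 at 4 months. Below without overlap lay 1 of 37 members, against 2.81% of all genes. Ndufv2 (-0.23, SE 0.16) and Ndufa10 (-0.20, SE 0.14) were among the members with the smallest p-values, with adjusted p-values of 0.783 and 0.79. Complexes II to V had a median of -0.10 with 0 of 41 called.

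In MCK-NamptOE, 24 against 4 months called 0 of 37 by edgeR and 0 by DESeq2, with 2 at an unadjusted p below 0.05, against 0.733% of all genes called and 11.0% at an unadjusted p below 0.05. The median was 0.24, with 35 of 37 positive (52.5% of all genes were). This comparison has the same libraries at 24 months as the one with WT, so their results are not independent. Ndufa1, a small membrane-anchored subunit, had 99.0, 94.5, 76.3 and 178 CPM at 24 months, against 68.1, 58.6 and 83.2 CPM at 4 months, with overlap (0.68, SE 0.23, adjusted p = 0.198). Ndufa2 (0.57, SE 0.23, adjusted p = 0.303) and Ndufv1 (0.43, SE 0.21, adjusted p = 0.454) came next. The median was 0.04 without MCK-NamptOE replicate 4 at 24 months, and 0.41 without replicate 3 at 4 months. Of the slow-fibre genes 1 of 8 rose, Atp2a2 (2.12, SE 0.43, adjusted p = 0.0435).

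The difference between the overexpression effects at 24 and at 4 months was tested as an interaction. It called 0 of 37 members, with 1 at an unadjusted p below 0.05 (5.45% of all genes), and 0.0% of all genes. The estimates were positive for 36 of 37 (51.9% of all genes) with a median of 0.36. Among the smallest p-values were those of Ndufa2 (0.79, SE 0.31) and Ndufa1 (0.61, SE 0.31), each with an adjusted p of 0.868. The median was 0.14 without MCK-NamptOE replicate 4 at 24 months and 0.55 without replicate 3 at 4 months. The higher level at 24 months was therefore not shown to differ from the effect at 4 months.

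Over the 15 libraries at 4 and 24 months, each member was set against the mean of the standardised members. Their Pearson r had a median of 0.86, from 0.59 (Ndufv3) to 0.97 (a description; the libraries share their depth and their scaling). The genes outside the family most like that mean were Cox6c (r = 0.97), Atp5h (0.97), Atp5j (0.97), Uqcrh (0.96) and Idh3b (0.96), while the median over the 9107 other genes was -0.00. The first 4 encode subunits of complexes IV, V and III, and Idh3b a subunit of the NAD-dependent isocitrate dehydrogenase.

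The members called or named rest on genes of unlike certainty. By the reference annotation (GENCODE M21, GRCm38), 10 members share over 10% of the 50-base stretches of their transcript with other genes, among them Ndufb4, Ndufa12 (17.2%) and Ndufs3, and 16 share none, among them Ndufs4, Ndufa6, Ndufv1, Ndufs7, Ndufs8, Ndufa4 and Ndufa4l2. Ndufa13 (overlapped by Tssk6) and Ndufb6 (by Smim27) overlap genes on the other strand over 30.0 and 39.0% of their exons. The sources used here give no strandedness, so reads of such pairs cannot be told apart.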

How the data were processed

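Total RNA of 23 quadriceps was sequenced as poly(A) mRNA, per the labels' protocols. For each library the authors deposited raw counts by gene, and 5 comparison tables whose columns are a mean of normalised counts (a signal), a log2 fold change with its error, a test score, and raw and adjusted p-values, per the file headers. The submitters' processing notes name cutadapt 1.4.2, TopHat2, HTSeq, DESeq2 and DESeq with build mm10, with no settings. Summary lines of unassigned reads (21.5 to 33.5% of file totals at 7 months, 33.6 to 40.0% at 4 and 24 months) stayed out of library sizes.

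Counts at 7 months (8 libraries) and at 4 and 24 months (15 libraries) had separate fits, because the RNA extraction differed, in edgeR 4.0.16 in R 4.3.3: filterByExpr, TMM, robust quasi-likelihood F tests, 1 mean per group and Benjamini-Hochberg adjustment over all genes tested (13140 and 9144), with a threshold of 0.05. Levels are TMM-scaled CPM, log2 CPM has 0.5 added, and per-kilobase levels use the longest APPRIS principal transcript of GENCODE M21. The fit was tested on simulated counts in which few genes changed, by balanced folds, so the scaling at 7 months was not tested by it. Replicate numbers follow accession order and pair nothing. P-values cover the spread between animals of this series.

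The members and gene lists were chosen with earlier results of these data known, so no set was tested. 1 member counts in all totals and is not reported by itself here. Named genes are the core matrix-arm subunits, up to 10 called members per comparison by p, or the 3 smallest p where none was called, up to 4 called genes per other list, and the 5 genes most like the members by Pearson's r. Where DESeq2 1.42.0, RLE factors, total counts, other filters, 1 fit of all libraries, fits of 2 groups or left-out libraries were tried, their effect is given below.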

Additional observations from a re-analysis of the deposited data

Results flagged for a closer look

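In groups of 4 libraries the highest or lowest value was set against the spread of the others (Dixon's ratio), which marks about 1 group in 20 by chance. Of 72 such groups examined, 6 held a value that stood out, so the number is not far above what chance gives. Of these, 3 are from MCK-NamptOE replicate 4 at 24 months: Ndufa5 at 187.5 CPM (the other 3 libraries had 96.3 to 106 CPM), the members' share of counts at 0.553% (0.380 to 0.399%), and the median deviation of the members at 0.721. The same library has the highest Nampt of all (9533 CPM).

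A further 2 are from mNKO replicate 4 at 7 months, in which Ndufb2 stood at 72.6 CPM (49.5 to 53.2 in the others) and Ndufs8 at 89.7 CPM (69.7 to 70.2). This library has the least Nampt of the mNKO group (12.5 CPM) and the lowest ratio of mitochondrially encoded to nuclear subunit counts (4.48). In WT replicate 4 at 4 months that ratio was 54.0, against 37.8 to 40.1 in the other WT libraries.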

How the results depend on the processing

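No paired analysis was possible because the labels give animal identities only. At 7 months the count of members lower (14) and higher (1) was 0 and 7 with total counts, the median then being 0.15. Total counts also reversed Ndufv1 (0.13), Ndufs1 (0.11), Ndufb8 (0.10), Ndufs8 (0.14), Ndufs7 (0.069), Ndufs3 (0.13) and Ndufv2 (0.22), none of them called. The other settings without a left-out library gave 10 lower (all 23 libraries in 1 fit, where 2822 of 11129 genes were lower) to 16 (DESeq2). The fits without 1 library gave 7 to 23, and where 7 to 9 were lower their share was near that of all genes. The uncalled Ndufb3, Ndufa13 and Ndufb7 turned negative without WT replicate 1 (-0.01, -0.02, -0.10) and without mNKO replicate 4 (-0.059, -0.076, -0.15). Leaving out 1 library, they ran from -0.059 to 0.22, from -0.076 to 0.18 and from -0.15 to 0.22. The cause was not tested.

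The share of counts in the members was 1.05 to 1.18 times WT over fits leaving out 1 library at 7 months. For MCK-NamptOE over WT it was 0.95 to 1.13 at 4 months and 1.10 to 1.27 at 24 months. At 4 months the median of the members turned to -0.03 without WT replicate 2, -0.02 without WT replicate 4 and -0.15 without MCK-NamptOE replicate 3. With no filter on low counts, edgeR called 1 member higher at 24 months against WT (Ndufa5, adjusted p = 0.00254). In MCK-NamptOE at 24 against 4 months it called 1 (Ndufa1, adjusted p = 0.00445). Calls rose over all genes in that setting. Of 17207 genes, 94 were called higher and 36 lower at 24 months against WT, where the main fit called 1. At 24 against 4 months, 216 were higher and 138 lower, against 29 and 38 in the main fit. All other alternatives left 0 members called in the 5 comparisons at 4 and 24 months. Depth there, at most 3443762 counts, limits Ndufa4l2 and Ndufa2 most.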

Other observations

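Within the 7-month set, Cox8a, a complex IV subunit, rose by 1.15 on the log2 scale in mNKO (54.1 ± 8.91 CPM in mNKO and 24.3 ± 4.66 CPM in WT, SD, n = 4 each, edgeR adjusted p = 0.000214), beside the rise of Ndufa4l2 and Cox6a1. The processed pseudogene Ndufab1-ps, left out of the members by its name, had 1732 counts at 7 months and 211 at 4 and 24 months.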
